A study of Mus with 8 samples.

Results

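The regions described here are 261 of the 28658 C/EBPβ regions found in 3T3-L1 cells, or 0.911% of them. They had a C/EBPβ peak in control cells before induction, in control cells 4 h after induction and in Prep1 down-regulated cells 4 h after induction, and none in Prep1 down-regulated cells before induction. The members were thus chosen by measured values, namely the presence or absence of a peak in each of the 4 deposited peak lists, after peaks overlapping by at least 1 bp had been merged. What the rule used is given as a description below. The 4 ChIP libraries and 4 input libraries were 1 of each per condition, so no test between conditions was possible, and each interval covers counting error alone.

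All 4 conditions used 3T3-L1, a mouse preadipocyte line. C cells carried a scrambled shRNA and P cells a Prep1 shRNA, both delivered in a pLKO.1-based lentivirus with puromycin selection, so both are infected and selected populations and P stands for 1 hairpin. Chromatin was taken at day −2, before any inducer, and 4 h after dexamethasone, 3-isobutyl-1-methylxanthine and insulin had been added. Per the paper's methods, cells were grown with bovine calf serum and induced, after confluence, in medium with fetal bovine serum. Serum and time in culture thus also differ between the time points, and cannot be told apart from the inducers here. Precipitation used an antibody against C/EBPβ. Expression was not measured in these libraries, so neither the cell type nor the level of Prep1 could be checked here. With 1 library per condition, the hairpin and the individual library cannot be told apart as the source of a difference.

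C/EBPβ is a basic leucine zipper transcription factor that is among the first to act when preadipocytes receive adipogenic hormones. It occupies enhancers within hours and precedes Pparγ and C/EBPα, the regulators that later establish the fat cell. Prep1 is a homeodomain protein of the TALE class that binds DNA together with Pbx partners.

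Fold enrichment compares the ChIP fragments over the summit of a peak with the input background there, after 1 is added to each, as computed by the authors' peak caller. The fragments and the background behind it were recovered for 100% of peaks in each list. The lists held between 838 peaks (C day −2) and 26713 peaks (P 4 h), and the genome-wide background was 0.623 fragments in the C day −2 library and between 0.461 and 0.476 in the other 3. The shortest peak, which follows the fragment length set for a library, was 215 bp in C cells at day −2 and between 159 bp and 164 bp in the other 3 lists.

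Of the 837 regions with a C day −2 peak, 318 had no P day −2 peak, and 261 of these (82.1%, exact 95% interval 77.4 to 86.1) had peaks in both 4 h lists. A further 21 of the 318 had a 4 h peak in C cells alone, 13 in P cells alone, and 23 (7.23%, 4.64 to 10.7) had no 4 h peak in either. A P 4 h peak was present in 274 of the 318 (86.2%, 81.9 to 89.8), in 518 of the 519 regions that had both day −2 peaks and in 94.6% of all 837. Control sites not called in uninduced P cells were thus mostly called there after induction, at a share below that of all control sites. Seen from the other side, 768 regions had peaks in C day −2, C 4 h and P 4 h, and 34.0% of them (30.6 to 37.5) lacked the P day −2 peak. The other 507 had a peak in all 4 lists. The converse class, with peaks in all lists except C day −2, held 977 regions.

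In their 3 lists the 261 regions were bound moderately before induction and more strongly after it. Fold enrichment in C cells at day −2 ranged from 4.00 to 16.6, with a median of 7.35 and quartiles of 6.35 and 8.63. In C cells at 4 h the median was 14.7 (quartiles 10.8 and 20.4, range 3.76 to 45.4). In P cells at 4 h it was 18.6 (13.4 and 26.7, range 5.99 to 64.7). In fragments at the summit, the medians were 15 in C day −2, 28 in C 4 h and 37 in P 4 h, and the lowest value of any member was 9 in C day −2. A larger fragment length set for the C day −2 library, inferred from its shortest peak, would raise its numbers relative to those at 4 h. The ranges of the 3 libraries overlapped.

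Regions with a peak in all 4 lists stood higher in each of these libraries. Their median fold enrichment was 8.75 in C day −2, 20 in C 4 h and 31.5 in P 4 h, and 12.2 in P day −2. Regions that lacked only the C day −2 peak had a median of 14.2 in C 4 h, close to the 14.7 of the members, and of 25 in P 4 h, against 18.6. The members therefore lay beside the converse class in induced C cells and below it in induced P cells. These medians are descriptions of 1 library each and were not tested.

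**Figure D1:**
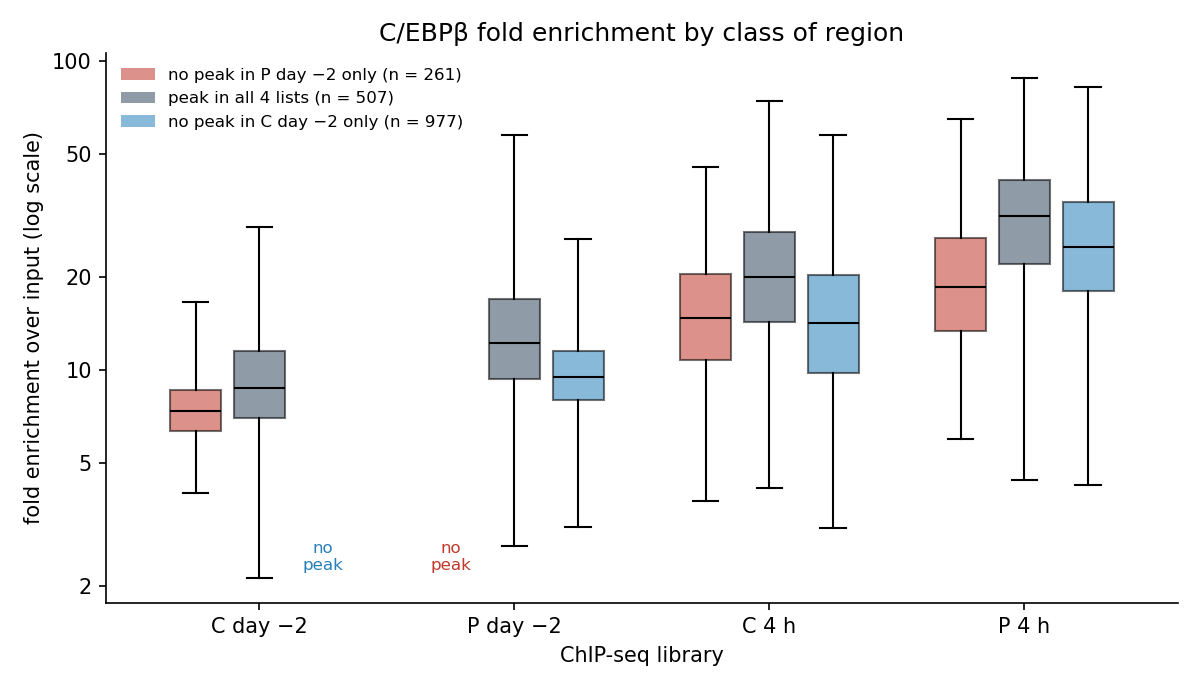
Fold enrichment over input (log scale) in the 4 ChIP-seq libraries for the 261 regions without a P day −2 peak, the 507 with a peak in all 4 lists and the 977 that lack only the C day −2 peak. Boxes span the quartiles, the line is the median and whiskers reach the lowest and highest region; "no peak" marks the list that the rule requires to be empty, and the 261 regions have the lowest box in P 4 h.

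After induction the members ranked above the sites called at 4 h alone and below the regions with a peak in all 4 lists. Among all regions called in C cells at 4 h, their median percentile of fold enrichment was 81.6, and among those of P cells at 4 h it was 81.9. In the C day −2 list itself their median percentile was 39.2, against 60.8 for the regions with a peak in all 4 lists. At 4 h those regions had median percentiles of 91.9 in C cells and 95.3 in P cells. Regions lacking only the C day −2 peak had 80 and 90.9, so the members were close to them in C 4 h and below them in P 4 h. Sites with peaks in both 4 h lists and in no day −2 list had a median percentile of 49.9 in C 4 h and 69.8 in P 4 h.

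Weak sites in C day −2 lacked the P day −2 peak more often than strong ones. Among the 768 regions, the share without it was 54.4% (49 of 90) where the C day −2 peak had a −log10 p between 5 and 10, and 47.7% (135 of 283) between 10 and 15. It was 29.3% (49 of 167) between 15 and 20 and 16.7% (23 of 138) between 20 and 30. At 30 or more, 5 of 90 regions lacked the peak, or 5.56% (1.83 to 12.5). Strength after induction went the same way. In the lowest quartile group of P 4 h fold enrichment 63.4% of 191 regions were members, and in the highest quartile group 9.90% of 192. Over quartile groups of C 4 h fold enrichment the share fell from 49.0% to 16.1%. The strength of the C day −2 peak is part of how the regions were chosen, so these shares are a description of the class.

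**Figure D2:**
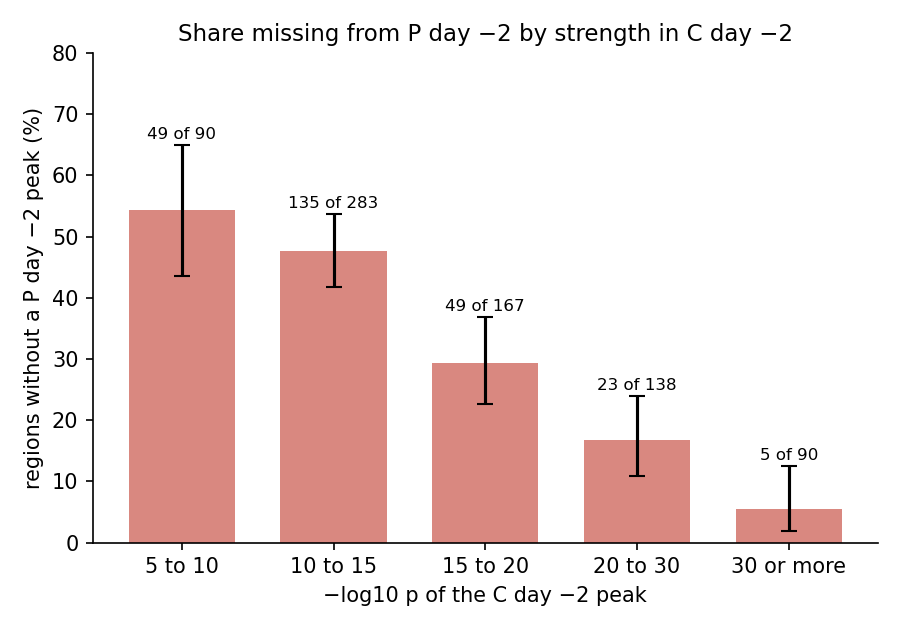
Share of regions without a P day −2 peak (%) by the −log10 p of their C day −2 peak, among the 768 regions with peaks in C day −2, C 4 h and P 4 h. Bars are shares with exact 95% intervals and counts above them, and the share declines from 54.4% in the weakest bin to 5.56% in the strongest.

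How low binding in uninduced P cells was cannot be read from the lists, since a region under the calling threshold has no value. The limit can be described. A −log10 p of 5 took at least 7 fragments at the genome background of the P day −2 library, and 9 at the median background of its peaks. In the C day −2 library it took at least 6 fragments at the genome background. The 21 weakest P day −2 peaks, those with a −log10 p under 7, had 8 to 15 fragments, with a median of 12. Members have no such value. Given only to show the values on the called side, 170 regions with a peak in all 4 lists had as many C day −2 fragments as the members between their quartiles (13 to 18), and these had a median of 21 fragments in P day −2, with quartiles of 17 and 27 and a lowest value of 10. These 170 were required to have a P day −2 peak, so their values are cut off from below by the threshold. Fragment length was not measured, but the shortest peak was 215 bp in C day −2 and between 159 bp and 164 bp in the other 3 lists. A larger length set for C day −2, inferred from this, would raise the number covering any base. Its fragment numbers are therefore not taken to be on 1 scale with those of the other 3 libraries.

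At 4 h the members were higher in P than in C cells, as were other shared sites, and their median ratio was the lowest of the classes compared. The log2 P/C ratio of fold enrichment of the members was 0.31 (quartiles −0.13 and 0.75, range −1.38 to 2.28). Over all 11532 regions with peaks in both 4 h lists it was 0.62, over regions with a peak in all 4 lists 0.59, over those called at 4 h alone 0.60, and over regions lacking only the C day −2 peak 0.80. P cells were above C cells in 174 of the 261 members (66.7%, 60.6 to 72.4), against 82.1% of those 11532 regions. The share was 81.7% in regions with a peak in all 4 lists and 88.6% in those lacking only the C day −2 peak. The classes overlapped widely. With 1 library per condition the difference between classes was not tested across cultures.

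A difference of at least 1.5-fold in fold enrichment stood in for a call. P exceeded C by that much in 85 members (32.6%, 26.9 to 38.6), while 51.6% of all regions with peaks in both 4 h lists did so. P was below C by that much in 14 members (5.36%, 2.96 to 8.84), against 3.56% of all such regions, and this last share lay inside the interval of the members. The remaining 162 members were within 1.5-fold. The share of members stronger in induced P cells was thus below the background, and the share of weaker ones was near it.

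**Figure D3:**
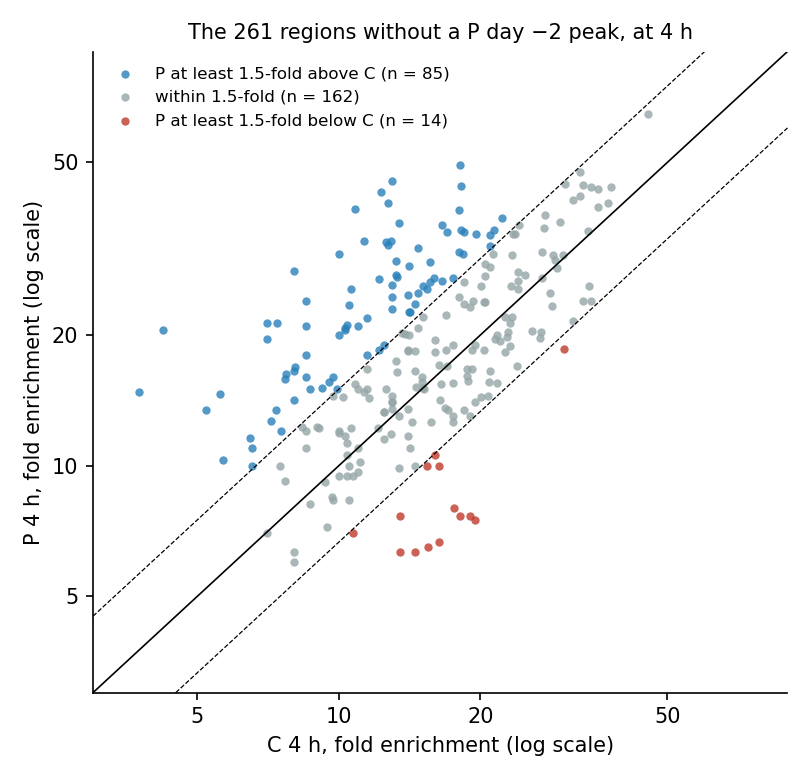
Fold enrichment of the 261 regions in C cells (horizontal) and P cells (vertical) at 4 h, both on log scales, 1 point per region. The solid line marks equal values and the dashed lines 1.5-fold; 85 regions lie above the upper dashed line and 14 below the lower one.

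The medians of fragments at the summit gave the same order of classes. The median log2 P/C ratio of fragments was 0.42 for the members, 0.63 for regions with a peak in all 4 lists, 0.69 for those called at 4 h alone and 0.84 for those lacking only the C day −2 peak. P had more fragments than C in 188 members, fewer in 64 and as many in 9. The share with more in P was 72.0% (66.2 to 77.4) for the members, 88.4% over all 11532 regions with peaks in both 4 h lists, 94.1% over those with a peak in all 4 lists and 97.4% over those lacking only the C day −2 peak. In 47 members the ratio of fragments and the ratio of fold enrichment pointed in opposite directions, as they did in 1459 of all 11532 regions (12.7%) with peaks in both 4 h lists.

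**Figure D4:**
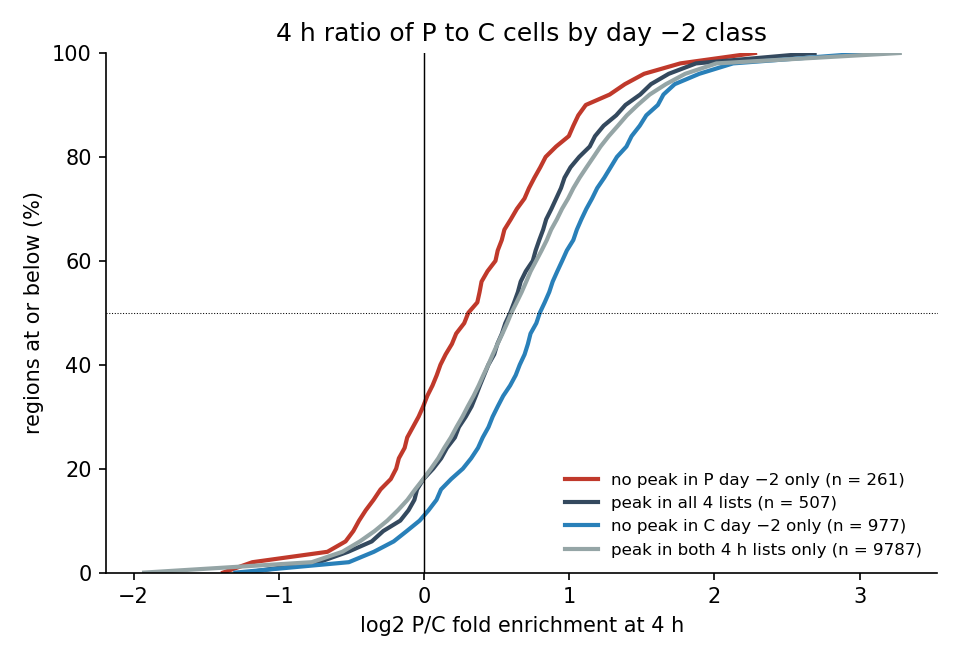
Cumulative share of regions (%) against the log2 P/C ratio of fold enrichment at 4 h, for 4 classes set by their day −2 peaks. The curve of the 261 members lies to the left with a median of 0.31, the curve of regions lacking only the C day −2 peak lies to the right with a median of 0.80, and the other classes lie between at 0.59 and 0.60.

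Since the classes differ in strength, the ratio was also read within quartile groups of the mean 4 h fold enrichment of C and P cells. In the lowest quartile group the median log2 P/C ratio was 0.13 over 20 members and 0.38 over all 2883 regions of that quartile group. In the second quartile group it was 0.20 over 41 members against 0.63, in the third 0.18 over 71 members against 0.77, and in the highest 0.38 over 129 members against 0.70. The median of the members was below that of each of the other 3 classes in each quartile group, with overlapping quartiles. A match on C day −2 fragments alone is given as a description. It cannot match strength in P day −2, where the rule requires a peak in the compared regions and none in the members. The 148 members with 13 to 18 fragments in C day −2 had a median of 0.30 (quartiles −0.12 and 0.73), and the 170 regions of all 4 lists in the same range had 0.73 (0.36 and 1.07).

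**Figure D5:**
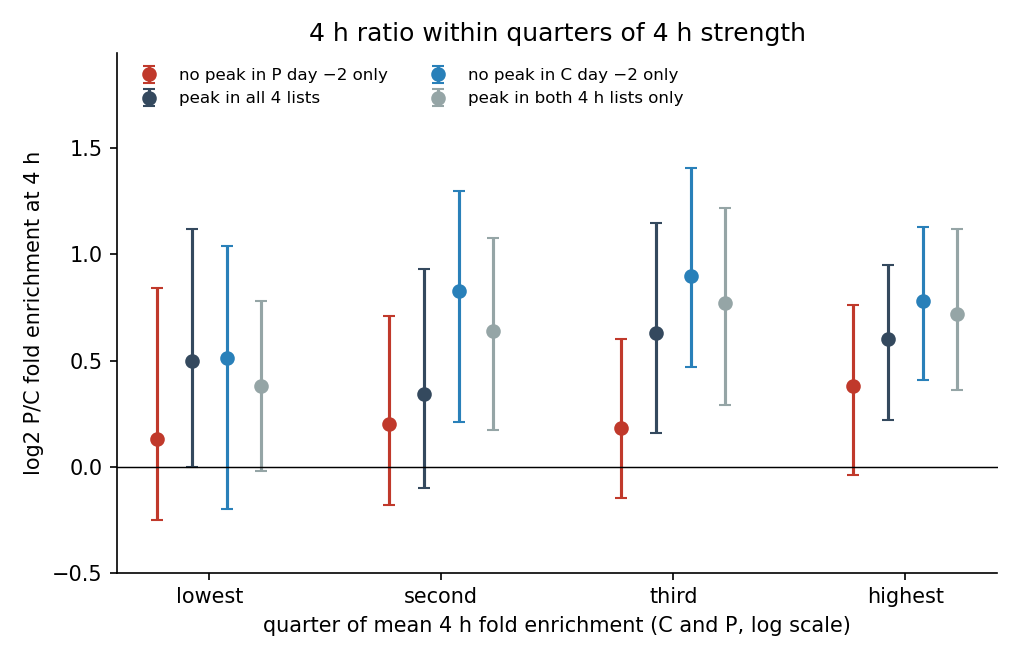
Median log2 P/C ratio of fold enrichment at 4 h for 4 classes of region, within quartile groups of their mean 4 h fold enrichment. Points are medians and bars span the quartiles, and the median of the regions without a P day −2 peak is the lowest of the 4 in each quartile group (0.13, 0.20, 0.18 and 0.38).

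In C cells most members were higher after induction than before it, as were most regions with peaks in both C lists. Fold enrichment was higher at 4 h than at day −2 in 244 of the 261 (93.5%, 89.8 to 96.2). This was near the 93.8% of all 790 regions with peaks in both C lists. The median log2 ratio of the members was 0.95 (quartiles 0.54 and 1.46). The median over regions with a peak in all 4 lists was 1.15, and 94.9% of them were higher at 4 h. In fragments these medians were closer, at 0.91 for the members and 0.95 for the regions of all 4 lists. Both are read against the larger fragment length inferred for the C day −2 library. Fold enrichment at least doubled in 126 members (48.3%, 42.1 to 54.5) and in 59.4% (55.0 to 63.7) of regions with a peak in all 4 lists. It did so in 54.4% of all 790 regions with peaks in both C lists, of which the members are part. The difference between the classes rests on 1 library per time point and was not tested. No member fell by 2-fold or more, and neither did any other of the 790 regions. The 17 members that were lower in C 4 h than in C day −2 were all higher in P 4 h than in C day −2, 8 of them by at least 2-fold. Over all members P 4 h was above C day −2 in 250 of 261 (95.8%) and at least 2-fold above it in 168 (64.4%, 58.2 to 70.2). The corresponding shares over regions with a peak in all 4 lists were 98.4% and 85.0%, and 76.6% of all 792 regions with C day −2 and P 4 h peaks were at least 2-fold above. Set against the same C day −2 value, 102 members were at least 2-fold higher in both 4 h lists, 66 in P 4 h alone, 24 in C 4 h alone and 69 in neither. As shares these are 39.1%, 25.3%, 9.20% and 26.4% of the members, against 55.8%, 29.2%, 3.55% and 11.4% of the regions with a peak in all 4 lists.

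Levels at day −2 and at 4 h were weakly related across the members. Over the 261 regions, Spearman's rho was 0.19 between C day −2 and C 4 h fold enrichment, 0.12 between C day −2 and P 4 h, and 0.53 between C 4 h and P 4 h. The same values over the 507 regions with a peak in all 4 lists were 0.34, 0.30 and 0.58. These are correlations across sites of 1 library each, and the range of the members in C day −2 is narrower. In the lowest quartile group of C day −2 fold enrichment (69 members, 4.00 to 6.35) the median was 14.5 in C 4 h and 18.4 in P 4 h. In the highest quartile group (64 members, 8.64 to 16.6) it was 17.2 and 20.7. The median log2 P/C ratio at 4 h was 0.37 and 0.21 in these quartile groups.

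Since the peaks of a member overlap by rule, its summits are close by construction. The C and P summits at 4 h lay a median of 10 bp apart, and within 50 bp in 248 of 261 members. The C day −2 summit lay a median of 20 bp from that of C 4 h and 17 bp from that of P 4 h, and within 50 bp of them in 216 and 224 members. The same 3 medians over regions with a peak in all 4 lists were 8, 12 and 13 bp. In 5 members the C day −2 and C 4 h summits were over 200 bp apart. Merged members had a median length of 321 bp, each held 1 peak of C day −2 and 1 of P 4 h, and 3 held more than 1 peak of C 4 h.

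By rule no member overlapped a P day −2 peak, and that list held 1653 peaks over the genome. The nearest P day −2 peak lay a median of 337110 bp away, and within 1000 bp in 6 members and within 10000 bp in 13. The nearest other member lay a median of 2278361 bp away, and 2 of 261 were within 10000 bp of another. Both distances were computed for the members alone, so whether these counts are few or many cannot be said. Another region with peaks in both 4 h lists lay within 10000 bp of 71 members (27.2%, 21.9 to 33.0), of 34.7% of regions with a peak in all 4 lists and of 28.7% of those lacking only the C day −2 peak.

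For the 6 members with a P day −2 peak within 1000 bp, that neighbouring site had a peak in all 4 lists in 4 cases and lacked a C day −2 peak in 2. The 3 nearest are given here, and the members have no P day −2 value to set beside that of the neighbour. At chr6:128788290-128788596 (mm9, as are all coordinates here) fold enrichment was 6.85 in C day −2, 16.6 in C 4 h and 35.8 in P 4 h. A site 260 bp away had a peak in all 4 lists, with 12.8 in C day −2, 41.2 in P day −2, 23.8 in C 4 h and 53.4 in P 4 h. At chr8:74669422-74669810 fold enrichment was 7.37 in C day −2, 31.5 in C 4 h and 40.9 in P 4 h. Its neighbour 299 bp away had no C day −2 peak and 7.97 in P day −2, from 15 fragments. This was also so at chr9:14020458-14020771 (10.4 in C day −2, 14.5 in C 4 h and 16.5 in P 4 h), whose neighbour 305 bp away had 18.3 in P day −2 and no C day −2 peak. Both neighbours were called in both 4 h lists.

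The members with the most secure peaks in all 3 lists were as follows. At chr1:155538227-155538579 there were 29 fragments in C day −2 (exact Poisson 95% interval 19.4 to 41.6), 65 in C 4 h (50.2 to 82.8) and 71 in P 4 h (55.5 to 89.6), for a fold enrichment of 15.8, 33.1 and 24.0. More fragments and a lower fold enrichment in P 4 h went with an input background of 2.00 fragments there, against 0.995 in C 4 h. At chr9:51546497-51546873 the fragments were 28, 40 and 46 and the fold enrichment 14.5, 20.5 and 27.4. Fold enrichment was thus lowest at day −2 and highest in P 4 h, and the intervals of the 4 h fragments overlapped, at 28.6 to 54.5 and 33.7 to 61.4.

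At chr8:25567840-25568507 the fragments were 28, 72 and 53 and the fold enrichment 13.9, 14.7 and 31.7. Its input background was 3.98 fragments in C 4 h and 0.70 in P 4 h, so fold enrichment and fragments gave opposite directions. At chr3:62877030-62877343 there were 25 fragments in C day −2 and 32 in each 4 h library, with a fold enrichment of 14.9, 21.0 and 16.5. The 4 h fragments of C and P cells were thus equal. The site at chr16:76539796-76540259 had 25, 57 and 49 fragments and a fold enrichment of 14.7, 23.5 and 34.2. Here too the 4 h directions were opposite, with an input background of 1.47 fragments in C 4 h and 0.461 in P 4 h. The last of this group, chr10:94848337-94848687, had 24, 25 and 30 fragments and a fold enrichment of 13.5, 17.5 and 15.5. Its fragments were higher and its fold enrichment lower in P 4 h, with a background of 0.490 fragments in C 4 h and 1.00 in P 4 h.

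One more member belonged to the 4 with the strongest C day −2 peaks, the others being those on chromosomes 1, 9 and 8 above. At chr12:103655918-103656248 the −log10 p was 33.9 in C day −2, 36.6 in C 4 h and 22.7 in P 4 h, with 26, 28 and 21 fragments and a fold enrichment of 16.6, 17.5 and 12.6. This site had the highest C day −2 fold enrichment of all members, and was chosen for the strength of that peak.

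The members with the highest ratio of P to C cells at 4 h were chosen by that ratio, and their values are a description. At chr14:71137281-71137654 fold enrichment was 4.22 in C 4 h and 20.5 in P 4 h, with 20 and 40 fragments. At chr6:86353782-86354041 it was 3.76 and 14.8, with 14 and 28 fragments. The site at chr3:63243671-63244025 had 10.8 and 39.0, with 42 and 56 fragments, and that at chr1:138124980-138125273 had 8.03 and 28.1, with 23 fragments (14.6 to 34.5) and 50 (37.1 to 65.9). The last was the only 1 of the 4 whose Poisson intervals in C and P cells did not overlap. In these 4 sites the input background was 3.98, 2.99, 2.99 and 1.99 fragments in C 4 h and 1.00, 0.954, 0.461 and 0.811 in P 4 h. The background was thus higher in C cells at each of them, and its part in the ratio was not tested.

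At the other end, the site at chr15:27308361-27308917 had a fold enrichment of 19.5 in C 4 h and 7.49 in P 4 h, with 38 and 29 fragments. At chr11:110562303-110562602 the values were 19 and 7.66, with 37 and 22 fragments, and at chr1:146202170-146202557 they were 16.3 and 6.66, with 34 and 19 fragments. At chr5:91703412-91703741 they were 15.5 and 6.49, with 31 fragments (21.1 to 44.0) and 12 (6.20 to 21.0). Only at this last of the 4 did the Poisson intervals of C and P fragments not overlap, and there the input background was alike, at 1.06 fragments in C 4 h and 1.00 in P 4 h. At the other 3 it was between 0.995 and 1.14 in C 4 h and between 2.00 and 3.00 in P 4 h. These 4 sites were chosen by the P/C ratio of fold enrichment, and their values are a description. Over the 14 members at least 1.5-fold lower in P cells, 13 also had fewer fragments in P cells. Fragments enter the fold enrichment by which the 14 were picked, so this is no separate support.

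Near the threshold, the weakest member was chr1:145923137-145923388, with a −log10 p of 5.39 from 9 fragments in C day −2. Those at chr14:48564340-48564605 and chr19:53806322-53806772 followed, each with 6.70 from 12 fragments, and that at chr9:102963979-102964284 was tied with them. Just outside the class stood the regions of all 4 lists with the weakest P day −2 peaks. These were chr11:48669775-48670274, with a P day −2 −log10 p of 5.86 from 12 fragments, chr11:91830796-91831182, with 6.68 from 13, and chr10:6823222-6823535, with 6.95 from 10.

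Members were found on each of chromosomes 1 to 19 and X. Chromosome 2 held the most, with 27, and chromosome X the fewest, with 4. As a share of the regions with peaks in C day −2, C 4 h and P 4 h, the members made up 60.0% on chromosome 10 (21 of 35, exact interval 42.1 to 76.1) and between 20.9% (chromosome 6) and 52.4% (chromosome 12) on the others. The share over all other chromosomes together was 32.7% (240 of 733). The 21 regions on chromosome 10 spread from 3223959 to 120073620. Their median input background in P 4 h was 2.07 times that of the genome, against 2.17 over all members, and their median log2 P/C ratio at 4 h was 0.26. The median C day −2 fold enrichment of these 21 was 6.76, against 7.35 over all members. For chromosome 10 regions with a peak in all 4 lists it was 7.22, against 8.75 over all such regions. The part of this lower strength in the share was not tested. Chromosome 10 was singled out after its share was seen.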

How the data were processed

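C/EBPβ ChIP-seq and input libraries of 3T3-L1 cells were sequenced by the authors on an Ion Torrent instrument. Per their methods and the submitters' processing notes, reads were aligned to mm9 with Bowtie 0.12.8, keeping unique alignments, duplicates were removed, and mapped reads were equalised between libraries with SAMtools 1.3.1. Library size therefore differs little between conditions, while the efficiency of precipitation may differ. Peaks were called with MACS2 2.0.10.20131028 against input at a −log10 p of 5, 1 list per condition. The authors deposited for each peak a fold enrichment, a −log10 p, a −log10 q and the offset of its summit. A fixed threshold means that sites just under it carry no value. Peak names inside the 4 h lists carry an hour tag that differs from the label, and the labels were followed.

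Peaks of the 4 lists were merged where they overlapped by at least 1 bp, and each region took the peak of highest −log10 p from each list (Python 3.11.15, pandas 2.3.3, numpy 2.4.6). Fragments and background at the summit were solved from fold enrichment and −log10 p under the Poisson model of the peak caller (scipy 1.17.1), allowing a misfit of 0.01 in −log10 p. P libraries needed a ChIP scaling of 0.9963 at day −2 and 0.9985 at 4 h. On simulated data, fragments came out right at 958 of 958 peaks in the first run, 957 of 957 in the second and 952 of 952 in the third, and merging gave the right class for 600 of 600 regions. Reads were not used here, so library totals were not counted. Shares have exact Clopper-Pearson 95% intervals and fragments exact Poisson ones, both of counting error alone.

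Named regions are the 6 members with the highest lower −log10 p over their lists, the 4 highest in C day −2, the 4 highest and the 4 lowest by P/C ratio at 4 h, the 3 nearest to a P day −2 peak, and 3 on each side of the threshold. The members and these rules were chosen with earlier results of these data known. Alternatives were stricter thresholds, stricter overlap, a 1 kb margin, a P day −2 list of equal length, main chromosomes, and −log10 p or fragments in place of fold enrichment. Regions without chromosome 10 were added as an alternative after seeing the data. Genes, sequences and motifs at the regions were not analysed here, because the gene table at hand is of another build. Figures were drawn with matplotlib 3.10.9.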

Additional observations from a re-analysis of the deposited data

How the results depend on the processing

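Of 82 values computed for 9 results under 11 settings, 75 stayed inside the interval printed or computed for the reported value, the number of regions being held to 1.5 times, 7 moved outside it and none changed sign. Cutting the P day −2 list to the length of the C day −2 list leaves more sites without a peak by construction. The number of regions rose to 390 and their share of the 768 to 50.8%. Their median P 4 h fold enrichment also rose, to 20.6, for a reason that was not tested. Keeping peaks with a −log10 p of 10 or more gave 221 regions and raised their median C day −2 fold enrichment to 7.81, because weak peaks are dropped. When −log10 p replaced fold enrichment, the median log2 P/C ratio at 4 h was 0.44, P exceeded C by 1.5-fold in 39.1% of members, and the median log2 ratio of 4 h to day −2 in C cells was 1.31. With fragments the P/C median was 0.42. The other settings gave between 222 and 261 regions and a share between 33.2% and 34.6%. Without chromosome 10, a setting chosen after seeing the data, the share was 32.7% and the P/C median 0.33. Depth limits each single site, since most members rested on 13 to 18 fragments in C day −2, and the lack of a second library per condition limits every comparison. The alternative window for motifs was not run, since no genome of the build of the files was used here.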
